A study of Mus musculus with 30 samples.

Results

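Solute carriers are the membrane proteins that move amino acids, sugars, nucleosides, vitamins, metals and ions across the plasma membrane and across the membranes of organelles, each family (Slc1, Slc2 and so on) with its own substrates. Genes of this group were taken from the array by symbol: every probe with a single gene symbol that begins with Slc and a digit, leaving out Slc40a1, Slc24a3 and Slc2a1. The rule found 173 genes. Of these, 87 had values in at least 3 untreated, 3 day 1 and 3 day 2 samples and in at least 2 day 5 samples, and were tested among 6515 features in all. The samples were leukocytes from the circulating blood of mice of the inbred DBA/2 strain. Of these, 4 came from untreated mice, and 4, 4 and 3 from mice injected intraperitoneally with 83 mg per kg cyclophosphamide, an alkylating drug that harms dividing cells, 1, 2 and 5 days before blood was drawn. The sources used here state neither the age of the mice nor whether a sample pools several of them. On every 2-colour array the blood RNA carried Cy5 and a bone marrow reference carried Cy3, so each value is a log2 ratio of blood leukocytes over marrow. The cell type label calls the reference a marrow pool of untreated DBA/2 mice, whereas a treatment label of that channel names the drug at 83 mg per kg. A constant reference drops out of the differences between groups that follow, and the base of the deposited logarithm, taken as 2, is not given.

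Circulating leukocytes depend on these carriers for the building blocks of growth and defence. Folate carriers feed nucleotide synthesis, cationic and large neutral amino acid carriers feed protein synthesis and arginine metabolism, and zinc carriers set the metal's cytosolic pool. Carriers in the Golgi membrane bring in the activated sugars from which glycoproteins are built, and the Slc25 family links the cytosol with the mitochondrial matrix. Red cell precursors use their own set, among them mitoferrin 1 (Slc25a37), the glycine carrier Slc6a9 and the nucleoside carrier Slc29a1.

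The 86 solute carrier genes that were not tested had few values: 34 had none in any sample, 30 had values in 1 to 5 samples and 22 in 6 to 14. Among them were the phagosomal metal exporter Slc11a1, the red cell anion exchanger Slc4a1 and the glucose carrier Slc2a3, which had no value in any sample, and Slc3a2, the heavy chain partner of several amino acid carriers, with values in 6 samples. Only through the day 2 group did 5 of them fail (Slc10a3, Slc26a2, Slc29a2, Slc30a1 and Slc6a2), and only through the untreated group 2 (Slc32a1 and Slc34a1). The 87 tested genes therefore are those measurable in every group. They rested on 93 probes, 62 had values in all 15 samples, and 3.30% of their values were missing. One of them, Slc9a3r2, meets the symbol rule but encodes a scaffold protein that binds carriers.

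Changes among the solute carriers were few and moderate, and their share was near or below that of all features. One day after the drug 2 of 87 differed from untreated at a limma adjusted p under 0.05 (2.3%), against 4.6% of all tested features: Slc46a1 rose and Slc35b4 fell. At day 2, 10 differed (11.5%), against 12.7% of all features. Of these, 5 rose (5.75%, against 4.83% of all) and 5 fell (5.75%, against 7.84%). At day 5, 0 differed, against 1.09% of all. Between day 5 and day 2, 15 differed (17.2%), against 25.5% of all, with 7 higher at day 5 (8.05%, against 12.8%) and 8 lower (9.2%, against 12.7%). The F test for any difference among the 4 groups was passed by 14 (16.1%), against 22.7%. In all, 16 of the 87 (18.4%) passed at least 1 of the 4 comparisons, against 29.1% of all features. The comparisons with untreated share the same 4 control samples.

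**Figure D1:**
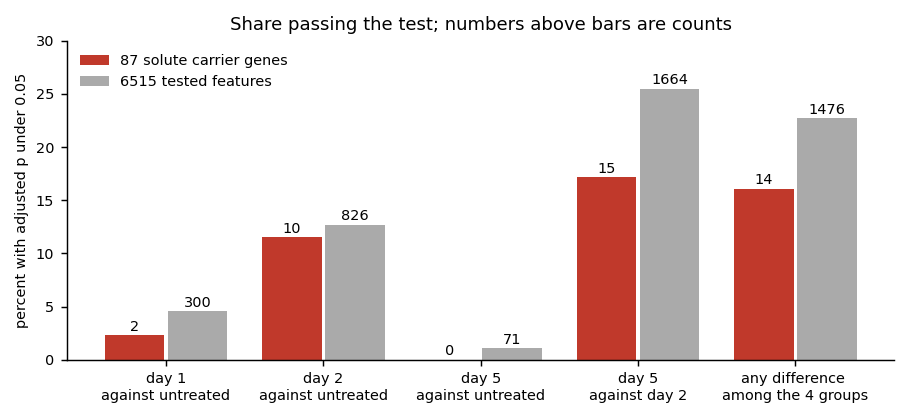
Bars give the percent of 87 solute carrier genes (red) and of 6515 tested features (grey) with a limma adjusted p under 0.05 in each comparison, and the number above a bar is the count. The red bar is lower than the grey one in all 5 comparisons, with 10 of 87 against 826 of 6515 at day 2 and 15 of 87 against 1664 of 6515 between day 5 and day 2.

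The typical size of change was close to that of all features, and large changes were few. At day 2 the median log2 change over the 87 genes was 0.08 and the median absolute change 0.20, against 0.059 and 0.20 over all features. Their changes ran from -0.97 to 0.83, so 0 of 87 changed by 1 or more on the log2 scale, where 216 features (3.32%) did. Day 1 changes ran from -0.89 to 0.80, with a median absolute change of 0.18 against 0.17 over all features. Between day 5 and day 2 the median absolute change was 0.26 against 0.27, and 2 of 87 (2.3%) changed by 1 or more, Slc35b4 and Slc46a1, against 5.8% of all. At day 5, 1 of 87 (1.15%) changed by 1 or more against untreated, and 1.07% of all features did. The residual spread between samples of a group had a median SD of 0.19 for the solute carriers and 0.22 for all features. Solute carriers also had 0 members among the 105 features that fell by at least 1 at day 2 and rose by at least 1.5 from day 2 to day 5, the pattern of the heme synthesis gene Alas2. Those 105 make up 1.61% of all features, so a count of 0 in 87 genes is near that share.

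Each gene was put into 1 of 10 substrate classes by its family name alone, not by a substrate shown for that gene. No class had more than 3 genes that passed at day 2. The nucleotide sugar class had 3 of 7, the amino acid and peptide class 3 of 19, and 4 further classes 1 gene each, where 12.7% of all features passed. Mitochondrial carriers had 0 of 15 and organic acid and ion carriers 0 of 11 at day 2, with median changes of -0.085 and 0.0080. These counts are small, and no class was tested against another. Counts by class or list below are to be read beside the shares of all features that passed. Those were 4.6% at day 1, 12.7% at day 2, 1.09% at day 5 and 25.5% between day 5 and day 2.

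**Figure D2:**
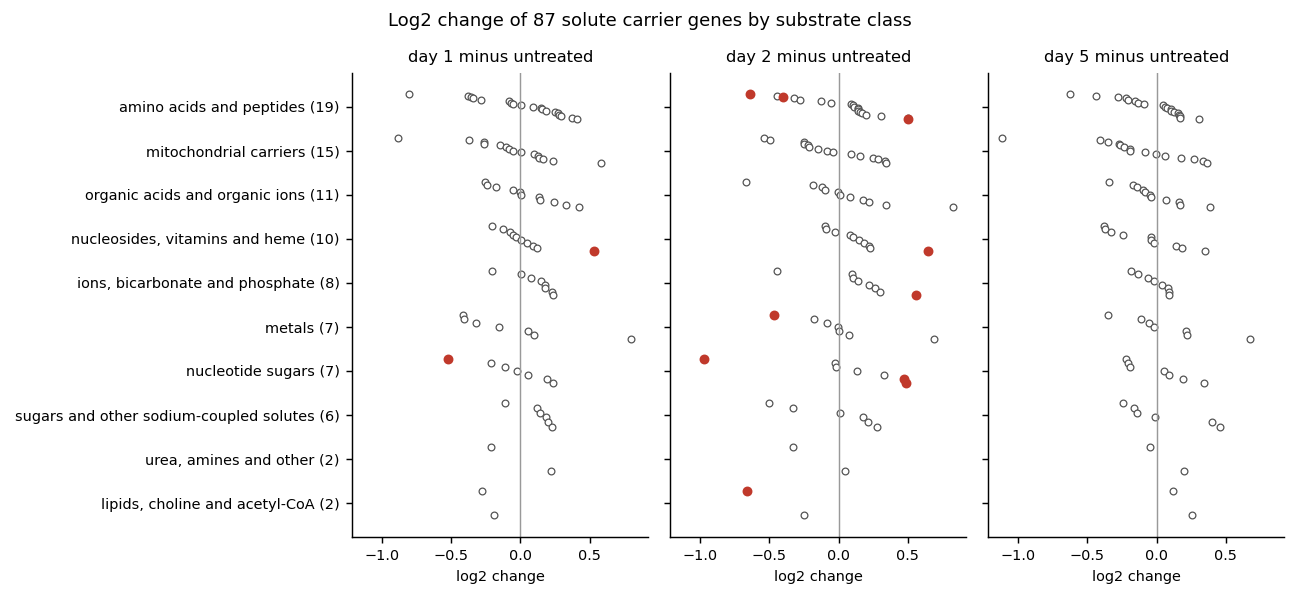
Each point is 1 of 87 genes, placed by its log2 change against untreated at day 1, day 2 and day 5 (horizontal axis) and its substrate class, with the number of genes in parentheses. Red points have a limma adjusted p under 0.05: 2 at day 1, 10 at day 2 and 0 at day 5, where the lowest value is -1.12.

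RNA of cell type markers changed over the same days, which bears on every value that follows. In bulk RNA, fewer cells of a type and less RNA per cell cannot be told apart, and no cell counts were used here. Of the neutrophil markers 4 of 6 were tested, and all 4 rose at day 2 and were lower at day 5 than at day 2. Their mean log2 ratio lay between -0.59 and -0.13 in untreated samples, between -0.16 and 0.30 at day 1, between 0.62 and 1.57 at day 2 and between -1.22 and -0.56 at day 5. Monocyte markers, also 4 of 6 tested, did the reverse: all 4 fell at day 2 and were higher at day 5 than at day 2. Their mean lay between 0.66 and 1.20, between 0.15 and 0.68, between -0.24 and -0.15 and between 0.63 and 0.88 in the same order of groups. B cell markers (2 of 6 tested) were lower than untreated at day 5, both of them, and of 4 tested NK cell markers 2 were lower at day 2 and 2 at day 5. The only T cell marker tested, Cd4, rose at day 2. Of 4 tested erythroid markers Alas2 alone passed, lower at day 2. Platelet markers, 4 of 6 tested, had means of 1.92 to 2.34 in untreated samples and 3.37 to 3.78 at day 1, above the marrow reference in every sample, and 2 of the 4 rose at day 1. The leukocyte genes Ptprc, Laptm5 and Coro1a and the T cell gene Cd3e had too few values to be tested, and Cd52, the leukocyte marker that was, passed in 0 comparisons. The part of these shifts in any change of a solute carrier was not tested.

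**Figure D3:**
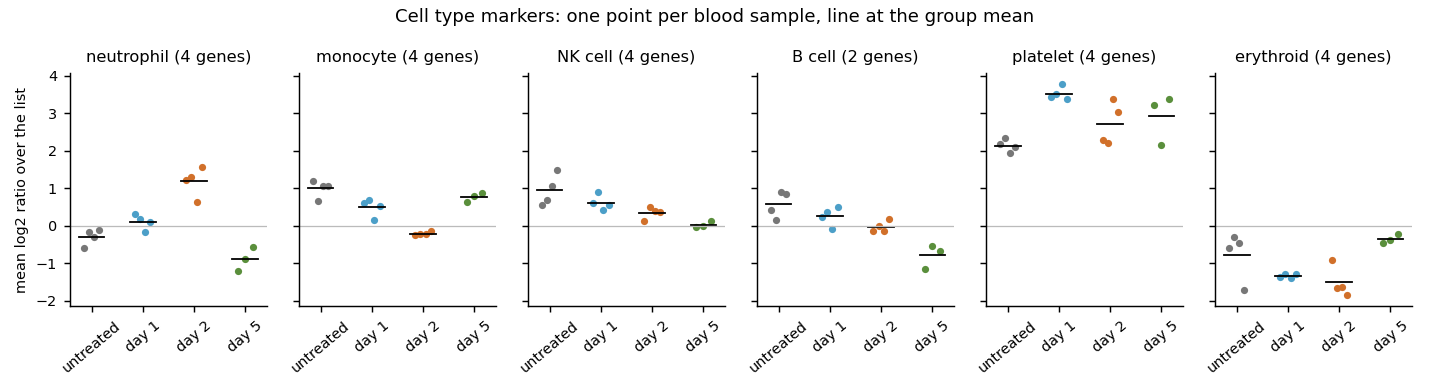
Points are the mean log2 ratio (blood over marrow) of the tested marker genes of a list in each blood sample, and lines are group means. Neutrophil markers peak at day 2 (0.62 to 1.57) where monocyte markers are lowest (-0.24 to -0.15).

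Promoter sequences are shown for the genes that moved most in opposite directions at day 2. Of the 9 genes that passed both at day 2 and between day 5 and day 2, 7 had a single promoter in RefSeq's table (GRCm38.p6), and the 2 with the largest rise and the 2 with the largest fall at day 2 were taken: Slc46a1 and Slc34a2, which rose, and Slc35b4 and Slc27a3, which fell. Each line holds the 150 bases before the transcription start, 5′ to 3′ on the gene's strand, with matches to 3 common promoter motifs in capitals. The motifs, searched on both strands and none of them part of another, were the E-box CACGTG, the CCAAT box (CCAAT) and the GC box (GGGCGG).
Slc46a1, chr11:78465551-78465700, plus strand: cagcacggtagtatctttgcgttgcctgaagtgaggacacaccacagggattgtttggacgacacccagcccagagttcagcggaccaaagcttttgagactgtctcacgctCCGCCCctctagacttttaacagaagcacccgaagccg
Slc34a2, chr5:53049203-53049352, plus strand: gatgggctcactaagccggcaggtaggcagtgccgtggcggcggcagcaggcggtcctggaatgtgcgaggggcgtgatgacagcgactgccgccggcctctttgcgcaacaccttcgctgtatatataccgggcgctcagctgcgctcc
Slc35b4, chr6:34177055-34177204, minus strand: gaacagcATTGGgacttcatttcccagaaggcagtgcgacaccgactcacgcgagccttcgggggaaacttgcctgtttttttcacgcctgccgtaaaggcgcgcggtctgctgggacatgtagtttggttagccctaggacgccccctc
Slc27a3, chr3:90389939-90390088, minus strand: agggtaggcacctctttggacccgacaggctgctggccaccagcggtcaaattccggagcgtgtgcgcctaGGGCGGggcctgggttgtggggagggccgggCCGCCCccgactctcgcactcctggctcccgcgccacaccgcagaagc
The Slc46a1 window held 1 GC box, on the opposite strand, beginning 38 bases before the start. Slc35b4 had 1 CCAAT box on the opposite strand, beginning 143 bases before the start, and Slc27a3 had 2 GC boxes, at 79 bases on its own strand and at 48 on the opposite strand. The Slc34a2 window had 0 matches to these letters. GC content was 54.7%, 66%, 58% and 71.3% in the order printed, against a median of 54% over all windows. Over all 32851 windows of this length, 4.3% held an E-box, 24.5% a CCAAT box and 28.6% a GC box. Of the 91 windows of the 66 solute carrier genes found in the table, 9 (9.89%), 19 (20.9%) and 38 (41.8%) did. The matches describe letters in these windows and do not show binding.

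Among carriers of nucleosides, vitamins and heme (10 genes), Slc46a1 (gene 52466), the proton-coupled folate transporter, rose at days 1 and 2 and was lower at day 5 than at day 2. Its log2 ratios were -0.20, -0.21, -0.44 and -0.48 in the untreated samples, 0.27, 0.33, 0.01 and 0.20 at day 1, 0.43, 0.42, 0.25 and 0.16 at day 2, and -0.86, -0.74 and -0.52 at day 5. All 8 samples of days 1 and 2 lay above all 4 untreated samples, and all 3 day 5 samples lay below them. The log2 change was 0.53 ± 0.12 (SE) at day 1 (limma adjusted p = 0.0212) and 0.65 ± 0.12 at day 2 (adjusted p = 0.00155), and between day 5 and day 2 it was -1.02 ± 0.13 (adjusted p = 3.31e-05). At day 5 the change against untreated, -0.37 ± 0.13, did not pass (adjusted p = 0.165). The day 1 call was lost without untreated replicate 3 or 4 or day 1 replicate 1, 2 or 4 (changes of 0.48 to 0.54, adjusted p of 0.0557 to 0.083).

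The other 9 genes of that class did not pass in any of the 4 comparisons with all samples. Slc19a1 (gene 20509), the reduced folate carrier, had ratios of -0.40, -0.44, -0.78 and -0.34 in untreated samples and -0.14, -0.55, -0.23 and -0.16 at day 2. Its groups overlapped, and the day 2 change was 0.22 with a 95% interval of -0.03 to 0.47, and without day 2 replicate 2 it passed between day 5 and day 2 (-0.36, limma adjusted p = 0.0474). Slc29a1 (gene 63959), the equilibrative nucleoside transporter of red cell precursors and other cells, read -1.07, -0.88, -1.62 and -0.98 untreated, -1.01, -1.40, -1.37 and -1.60 at day 1, -0.65, -0.80, -1.47 and -1.03 at day 2, and -1.23, -0.97 and -0.79 at day 5. It was below the marrow reference in all 15 samples, and its groups overlapped at every time. Its day 2 change was 0.15 with an interval of -0.27 to 0.56 (adjusted p = 0.669), and without untreated replicate 3 it was -0.01. The riboflavin carrier Slc52a3, the ascorbate carriers Slc23a1 and Slc23a2 and the thiamine carrier Slc19a3 had day 2 changes of -0.09, 0.10, -0.10 and 0.23, none past the threshold.

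The nucleotide sugar class held 7 genes, put there because they belong to the Slc35 family of the Golgi and endoplasmic reticulum. Of these, 4 passed the F test, where 22.7% of all features did. Slc35b4 (gene 58246), which carries UDP-xylose and UDP-N-acetylglucosamine, fell at days 1 and 2 and was higher at day 5 than at day 2. Its log2 ratios were -0.11, 0.10, 0.09 and 0.01 in untreated samples, -0.65, -0.78, -0.09 and -0.49 at day 1, -0.90, -1.004, -1.02 and -0.87 at day 2, and 0.36, 0.55 and 0.18 at day 5. Day 2 samples lay below all others of the series, day 5 samples above all others, and 1 day 1 sample overlapped the untreated range. The changes were -0.52 ± 0.14 at day 1 (limma adjusted p = 0.0414), -0.97 ± 0.14 at day 2 (adjusted p = 2.04e-04) and 1.31 ± 0.15 between day 5 and day 2 (adjusted p = 1.42e-05), while 0.34 ± 0.15 at day 5 against untreated did not pass (adjusted p = 0.248). The day 1 call was lost without any single untreated sample and without day 1 replicate 1, 2 or 4 (changes of -0.57 to -0.43, adjusted p of 0.0523 to 0.145). It was also lost in 4 other alternatives (adjusted p of 0.0504 to 0.0834).

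Slc35a5 and Slc35f4, of the same family, went the opposite way. Slc35a5 (gene 74102) read -0.34, -0.74, -0.13 and -0.59 untreated, -0.62, -0.84, -0.68 and -0.51 at day 1, 0.07, -0.10, -0.10 and 0.27 at day 2, and -0.66, -0.62 and -0.66 at day 5. Its 4 day 2 samples were the highest of the 15. It rose by 0.49 ± 0.13 at day 2 (limma adjusted p = 0.0244) and was lower by 0.68 at day 5 than at day 2 (-0.68 ± 0.14, adjusted p = 0.0025). Slc35f4 (gene 75288) read -0.83, -0.86, -0.61 and -0.38 untreated, -0.54, -0.60, -0.81 and -0.53 at day 1, -0.11, -0.31, -0.31 and -0.08 at day 2, and -0.70, -1.10 and -0.84 at day 5. Again the 4 day 2 samples were the highest of the series. The day 2 rise was 0.47 ± 0.13 (adjusted p = 0.0248) and the day 5 against day 2 change -0.67 ± 0.14 (adjusted p = 0.00219). Neither day 2 call held without each sample in turn: that of Slc35a5 was lost without untreated replicate 2 or 4 or day 2 replicate 1 or 4 (0.39 to 0.48, adjusted p of 0.0506 to 0.0781), and that of Slc35f4 without untreated replicate 1 or 2 or day 2 replicate 1 or 4 (0.41 to 0.44, adjusted p of 0.0584 to 0.0762). Slc35a5 also lost it in 2 other alternatives (adjusted p of 0.0731 to 0.149) and Slc35f4 in 3 (0.0512 to 0.0992).

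Slc35a4 (gene 67843) passed only between day 5 and day 2, at -0.55 ± 0.13 (limma adjusted p = 0.00538). Its ratios were -0.32, -0.57, -0.37 and -0.39 untreated, -0.14, -0.05, -0.42 and -0.27 at day 1, -0.06, -0.13, -0.02 and -0.11 at day 2, and -0.77, -0.80 and -0.32 at day 5. The day 2 samples lay above all untreated and all day 5 samples, though the day 2 change of 0.33 ± 0.12 did not pass (adjusted p = 0.0871, and 0.0387 without day 5 replicate 3). The remaining 3 genes of the class, Slc35d3, Slc35f5 and Slc35g3, had day 2 changes of 0.13, -0.02 and -0.02.

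**Figure D4:**
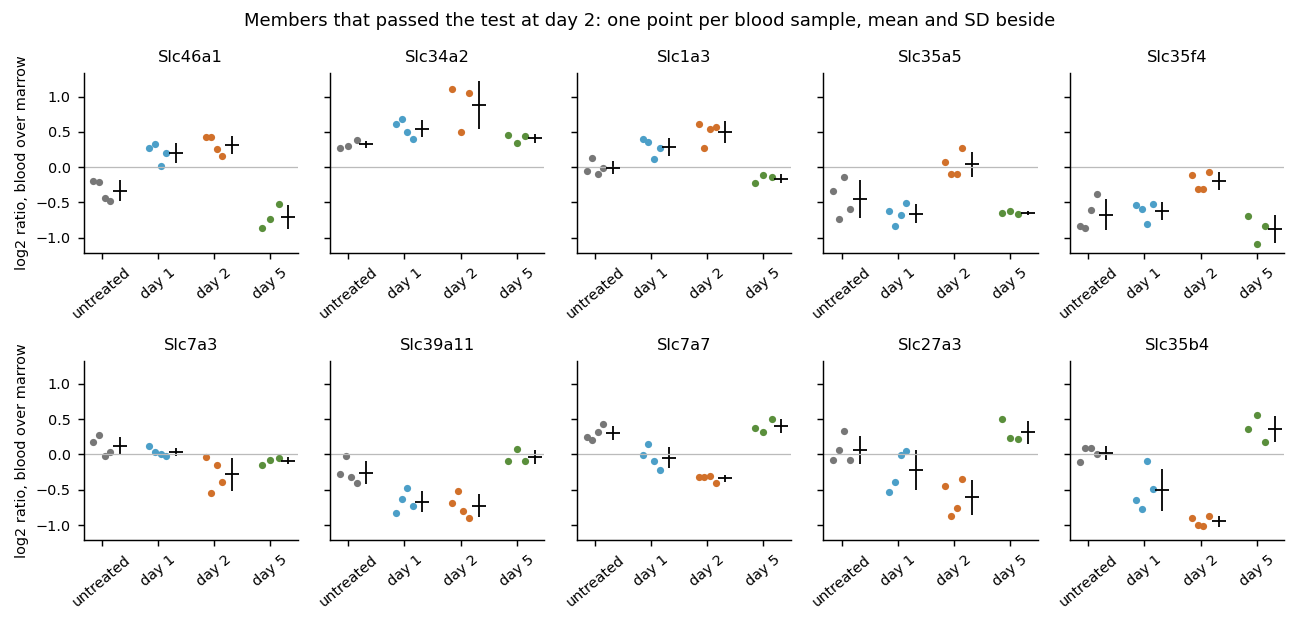
Points are log2 ratios (blood over marrow) in single blood samples for the 10 genes that passed at day 2, with the group mean and SD beside them. The top row holds the 5 that rose and the bottom row the 5 that fell, and day 2 samples (orange) do not overlap the untreated samples (grey) in any panel. The genes were chosen by the day 2 test on these same values, so the lack of overlap comes largely from that choice. Some genes that did not pass at day 2, such as Slc25a11 and Slc2a9, had no overlap either.

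The amino acid and peptide carriers were the largest class, with 19 genes, of which 1 rose and 2 fell at day 2. Slc7a7 (gene 20540), the light chain of a cationic amino acid exchanger found in kidney, gut and macrophages, read 0.24, 0.20, 0.32 and 0.43 untreated, -0.01, 0.15, -0.10 and -0.21 at day 1, -0.32, -0.32, -0.31 and -0.41 at day 2, and 0.38, 0.32 and 0.50 at day 5. All day 1 samples lay below the untreated samples and all day 2 samples lower still, while the day 5 samples were within or above the untreated range. It fell by 0.64 at day 2 (-0.64 ± 0.10, limma adjusted p = 5.01e-04) and was higher by 0.74 ± 0.11 at day 5 than at day 2 (adjusted p = 1.34e-04). The day 1 change of -0.34 ± 0.10 had an adjusted p of 0.0605. It passed in 6 alternatives (adjusted p of 0.0214 to 0.0494), at -0.40 with quantile normalization and at -0.34 in the others. Monocyte markers, for which values are given above, were low in the same day 2 samples, and their part in this fall was not tested.

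Slc1a3 (gene 20512), a glutamate and aspartate carrier, did the opposite. It read -0.05, 0.12, -0.09 and -0.02 untreated, 0.40, 0.36, 0.11 and 0.27 at day 1, 0.61, 0.27, 0.54 and 0.57 at day 2, and -0.23, -0.11 and -0.14 at day 5. The day 2 samples lay above all untreated samples and the day 5 samples below them. The rise at day 2 was 0.50 ± 0.10 (limma adjusted p = 0.00435), and the day 5 against day 2 change was -0.66 ± 0.11 (adjusted p = 5.09e-04). Slc7a3 (gene 11989), a cationic amino acid carrier, read 0.18, 0.27, -0.02 and 0.04 untreated, 0.12, 0.04, 0.00 and -0.02 at day 1, -0.04, -0.55, -0.14 and -0.39 at day 2, and -0.14, -0.07 and -0.04 at day 5. Its highest day 2 sample lay just below its lowest untreated sample. The fall at day 2, -0.40 ± 0.11 (adjusted p = 0.0328), was lost without untreated replicate 1, 2 or 4 or day 2 replicate 2 or 4 (-0.42 to -0.31, adjusted p of 0.0558 to 0.0958). It was also lost in 6 other alternatives, among them each technical replicate alone (-0.40 to -0.29, adjusted p of 0.0558 to 0.276).

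Slc7a5 and Slc7a11, of the same class, did not pass in any of the 4 comparisons. Slc7a5 (gene 20539), the large neutral amino acid carrier that activated lymphocytes induce, read -0.68, -0.72, -0.78 and -0.92 untreated, -0.52, -0.50, -0.57 and -0.87 at day 1, -0.48, -0.72, -0.51 and -0.82 at day 2, and -0.44, -0.79 and -0.62 at day 5. It stayed below the marrow reference in all 15 samples, with overlapping groups and a day 2 change of 0.14 (interval -0.11 to 0.40, limma adjusted p = 0.486). Slc7a11 (gene 26570), the cystine and glutamate exchanger that supplies glutathione synthesis, read 0.24, 0.00, 0.15 and 0.00 untreated, 0.02, 0.22, 0.02 and -0.13 at day 1, 0.20, 0.06, 0.08 and -0.17 at day 2, and 0.15, 0.13 and 0.16 at day 5. All its groups overlapped, and the day 2 change was -0.06 (interval -0.29 to 0.17), an interval that holds changes of either sign. The glutamine carrier Slc1a5, the glutamine and neutral amino acid carrier Slc38a1 and the cationic carriers Slc7a1 and Slc7a2 had day 2 changes of 0.09, 0.16, 0.11 and 0.17, none past the threshold. All day 1 samples of Slc7a1 lay above its untreated samples; the day 1 change of 0.28 had an adjusted p of 0.106, and of 0.0379 with array weights and 0.0255 with the blood sample as a random effect.

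Metal carriers had 7 tested genes, of which 1 fell at day 2, and its 2 probes disagreed. Slc39a11 (gene 69806), a zinc carrier of the ZIP family, read -0.28, -0.02, -0.32 and -0.41 untreated, -0.83, -0.64, -0.47 and -0.74 at day 1, -0.69, -0.52, -0.79 and -0.90 at day 2, and -0.09, 0.08 and -0.10 at day 5, as means of both probes. The samples of days 1 and 2 lay below all untreated samples. The day 1 change of -0.41 ± 0.12 did not pass (limma adjusted p = 0.059), though it did in 5 alternatives that kept the mean of both probes. The fall at day 2 was -0.47 ± 0.12 (limma adjusted p = 0.0161) and the day 5 against day 2 change 0.69 ± 0.13 (adjusted p = 9.86e-04). Taken alone, 1 probe gave -0.85 at day 2 (adjusted p = 0.00316) and 1.16 between day 5 and day 2 (adjusted p = 2.27e-04), whereas the other gave -0.09 (adjusted p = 0.681) and 0.22 (adjusted p = 0.259). At day 1 the probes gave -0.69 (adjusted p = 0.0327) and -0.13 (adjusted p = 0.61) in the same order. The averaged day 2 call was lost without untreated replicate 2 or day 2 replicate 4 (-0.39 and -0.41, adjusted p of 0.0539 and 0.0511).

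Slc39a4 (gene 72027), a zinc importer best known from the intestine, had the highest blood over marrow ratio of the 87 genes in untreated samples. It read 1.42, 1.16, 1.49 and 1.08 untreated, 2.22, 2.64, 1.36 and 2.13 at day 1, 1.52, 2.41, 1.79 and 2.21 at day 2, and 2.19, 1.10 and 2.61 at day 5. The day 2 samples lay just above the untreated ones, whereas days 1 and 5 overlapped them, and neither 0.80 at day 1 (limma adjusted p = 0.144) nor 0.69 at day 2 (adjusted p = 0.158) passed, though 1.04 without day 1 replicate 3 did (adjusted p = 0.0484). The copper carrier Slc31a2, the zinc exporters Slc30a3, Slc30a6 and Slc30a7 and the magnesium carrier Slc41a3 had day 2 changes of 0.01, -0.01, -0.18, -0.08 and 0.08.

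Lipid and acetyl-CoA carriers had 2 tested genes. Slc27a3 (gene 26568), a fatty acid transport protein with acyl-CoA synthetase activity, read -0.08, 0.06, 0.34 and -0.08 untreated, -0.53, -0.39, -0.01 and 0.05 at day 1, -0.44, -0.88, -0.75 and -0.35 at day 2, and 0.50, 0.23 and 0.22 at day 5. All day 2 samples lay below the untreated samples, and the day 1 samples were split. It fell by 0.66 at day 2 (-0.66 ± 0.16, limma adjusted p = 0.0121) and was higher by 0.92 ± 0.17 at day 5 than at day 2 (adjusted p = 0.00107). With the first technical replicate alone, the day 2 change was -0.65 and did not pass (adjusted p = 0.0728). Slc33a1 (gene 11416), which carries acetyl-CoA into the endoplasmic reticulum, read -0.17, -0.09, -0.04 and 0.11 untreated, -0.30, -0.24, -0.14 and -0.28 at day 1, -0.25, -0.39, -0.33 and -0.22 at day 2, and -0.01, 0.15 and 0.06 at day 5. The day 2 samples lay below all untreated and all day 5 samples. It was higher by 0.36 ± 0.10 at day 5 than at day 2 (adjusted p = 0.0146), a call lost without day 5 replicate 2 (0.32, adjusted p = 0.0552). The call was also lost with only those 2 groups fitted (0.36, adjusted p = 0.091).

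Ion, bicarbonate and phosphate carriers numbered 8, and Slc34a2 (gene 20531), a sodium and phosphate cotransporter, was the only one to pass. It read 0.28, 0.31 and 0.38 in 3 untreated samples, 0.60, 0.69, 0.50 and 0.40 at day 1, 1.10, 0.50 and 1.04 in 3 day 2 samples, and 0.45, 0.34 and 0.43 at day 5, with 1 value missing both untreated and at day 2. Day 2 samples lay above the untreated and the day 5 samples, 1 of them closely. The rise at day 2 was 0.56 ± 0.15 (limma adjusted p = 0.0277) and the day 5 against day 2 change -0.47 ± 0.15 (adjusted p = 0.0356). The day 2 call was lost without untreated replicate 1, 2 or 3 or day 2 replicate 2 or 4 (0.45 to 0.59, adjusted p of 0.0543 to 0.0995), and the other call without day 2 replicate 2 or 4 or any 1 of the day 5 samples (-0.49 to -0.36, adjusted p of 0.0546 to 0.12). The day 2 call was also lost in 5 other alternatives (adjusted p of 0.0566 to 0.179) and the other call in 6 (0.0517 to 0.172). The chloride cotransporters Slc12a2, Slc12a4 and Slc12a9 had day 2 changes of -0.45, 0.30 and 0.22, none past the threshold. Slc12a4 rests on 2 probes, 1 of them with values in 9 samples, and the complete probe alone passed between day 5 and day 2 at -0.58 (adjusted p = 0.0225), as did the mean without day 5 replicate 3 (-0.62, adjusted p = 0.0178). The scaffold gene Slc9a3r2 had 2 probes that moved apart between day 5 and day 2, at 0.23 (adjusted p = 0.116) and -0.43 (adjusted p = 0.0179), so its averaged change of -0.10 describes neither.

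Mitochondrial carriers of the Slc25 family, 15 genes, had 0 past the threshold at any time against untreated and 2 between day 5 and day 2. Slc25a11 (gene 67863), the oxoglutarate and malate carrier, read -0.51, -0.51, -0.45 and -0.58 untreated, -0.67, -0.55, -0.47 and -0.68 at day 1, -0.22, -0.02, -0.37 and -0.29 at day 2, and -0.90, -0.78 and -0.66 at day 5. Day 2 samples lay above the untreated samples and day 5 samples below them. The day 5 against day 2 change was -0.56 ± 0.11 (limma adjusted p = 0.00159), while 0.29 at day 2 and -0.27 at day 5 against untreated did not pass (adjusted p = 0.0777 and 0.232). Slc25a39 (gene 68066), needed for mitochondrial glutathione import, read 0.14, 0.18, 0.99 and 0.15 untreated, -0.53, -0.51 and -0.53 in 3 day 1 samples, 0.43, -0.66 and -0.18 in 3 day 2 samples, and 0.78, 0.83 and 0.57 at day 5. Its 3 day 1 samples lay close together and below the untreated samples, 1 of which stood far above the other 3. The day 5 against day 2 change was 0.86 ± 0.26 (adjusted p = 0.0256), lost without day 2 replicate 3 or 4 or day 5 replicate 1 or 2 (0.60 to 0.84, adjusted p of 0.0613 to 0.109). It was also lost in 2 other alternatives (adjusted p of 0.0612 to 0.0912). The day 1 change of -0.89 ± 0.24 had an adjusted p of 0.0535. That day 1 change passed in 9 alternatives (adjusted p of 0.0132 to 0.0439). Among them were the fits without day 1 replicate 3, where this gene had no value, and without day 2 replicate 2 or 3 (0.0281 to 0.0439). In those fits the change stayed at -0.89, so only the estimated spread or the adjustment differed. Without day 2 replicate 2 the day 2 change was -0.78 (adjusted p = 0.0453).

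Slc25a37 (gene 67712), mitoferrin 1, the mitochondrial iron importer of red cell precursors, read -0.11, -0.32, -0.79 and -1.16 untreated, -0.26, -0.78, -0.33 and -0.48 at day 1, -0.23, 0.04, -0.29 and -0.89 at day 2, and -0.34, -0.15 and -0.49 at day 5. The untreated samples alone spanned nearly the whole range. The day 2 change was 0.25 with an interval of -0.23 to 0.73 (limma adjusted p = 0.509). Slc25a33 (gene 70556), a pyrimidine nucleotide carrier named here after its values were seen, read 0.04, 0.64 and 1.07 in 3 untreated samples, 0.98, 1.34, 1.25 and 1.09 at day 1, 0.41, -1.19, 0.91 and 1.30 at day 2, and -0.62, -0.69 and -0.30 at day 5. All day 5 samples lay below all untreated and day 1 samples, and 1 day 2 sample lay lower still. Its day 5 change of -1.12 was the largest of the 87 genes at that time, with an interval of -2.09 to -0.14 and an adjusted p of 0.236. Without day 2 replicate 2, which alone read -1.19, it passed at day 5 against untreated (adjusted p = 0.0492) and between day 5 and day 2 (-1.41, adjusted p = 0.00109). The phosphate carrier Slc25a3, the citrate carrier Slc25a1 and the aspartate and glutamate carrier Slc25a13 had day 2 changes of -0.25, 0.34 and -0.54, none past the threshold.

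Sugar and other sodium-coupled carriers, 6 genes, had 0 past the threshold at day 2 and 2 between day 5 and day 2. Slc2a9 (gene 117591), which carries urate, read 0.46, 0.20, 0.24 and 0.26 untreated, 0.54, 0.38, 0.30 and 0.51 at day 1, -0.17, -0.31, -0.07 and -0.28 at day 2, and 0.75, 0.13 and 1.37 at day 5. Day 2 samples were the lowest of the series, and the day 5 samples were the most spread. It was higher by 0.96 ± 0.20 at day 5 than at day 2 (limma adjusted p = 0.00248), while -0.50 at day 2 against untreated did not pass (adjusted p = 0.0927). The latter passed without day 5 replicate 2 or 3 (adjusted p of 0.0197 and 0.0179), as did 0.77 at day 5 against untreated without day 5 replicate 2 (adjusted p = 0.0248). Slc37a3 (gene 72144), of the sugar phosphate exchanger family, read 0.15, -0.02, -0.20 and 0.20 untreated, 0.24, 0.27, 0.08 and 0.28 at day 1, 0.40, 0.12, 0.17 and 0.15 at day 2, and -0.36, -0.43 and 0.15 at day 5. Its day 5 and day 2 samples overlapped. The change between them, -0.42 ± 0.15 (adjusted p = 0.0439), was lost without any of 10 single samples, which were untreated 1 or 2, day 1 replicate 1, 2 or 4, day 2 replicate 1, 3 or 4, and day 5 replicate 1 or 2 (-0.44 to -0.32, adjusted p of 0.051 to 0.181). It was also lost in 6 other alternatives (adjusted p of 0.0525 to 0.138). The glucose carriers Slc2a4 and Slc2a8 had day 2 changes of 0.28 and 0.21.

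**Figure D5:**
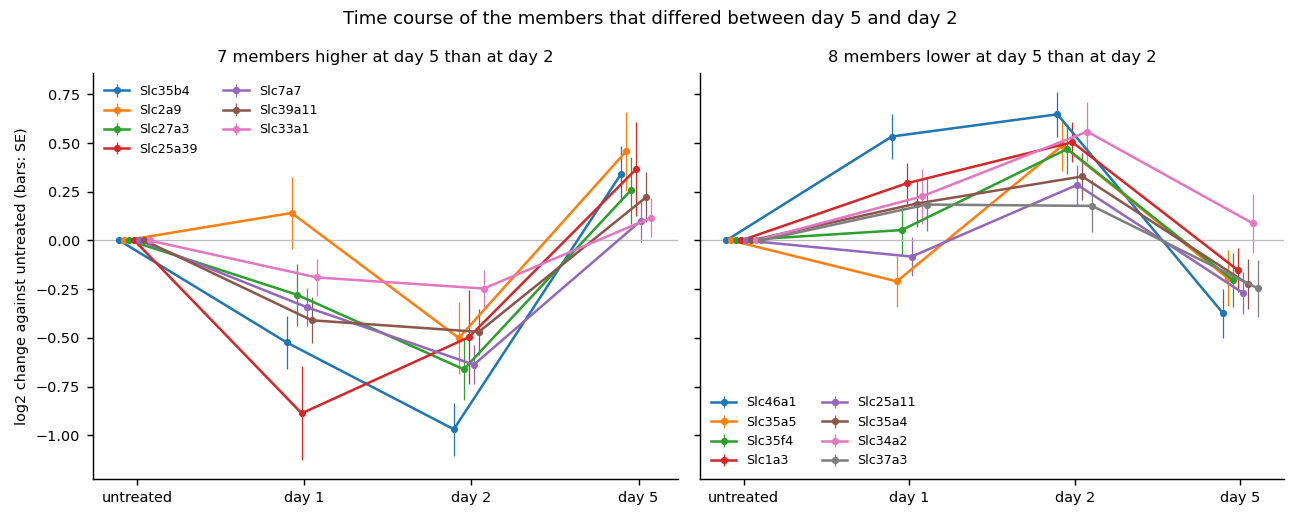
Lines join the log2 change against untreated at each time, with the SE from the fit as bars, for the 15 genes that differed between day 5 and day 2. The left panel holds the 7 that were higher at day 5 and the right panel the 8 that were lower, and at day 2 the left group lies below 0 and the right group above 0. The panels were split by the sign of day 5 minus day 2, so the opposite signs at day 2 come partly from that choice. Of all 87 genes, 61 had opposite signs for day 2 against untreated and day 5 against day 2, and the share over all features was not counted. Day 2 enters these differences with opposite sign, which favours opposite signs without any effect, so the count does not show a reversal.

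Organic acid and ion carriers, 11 genes, and the 2 genes for urea and amines had 0 past the threshold in the 4 comparisons. Slc22a12 (gene 20521), a urate carrier, named here after its values were seen, had one of the lower day 2 changes against untreated of the 87 genes. It read 0.60, 0.01, 0.50 and 0.43 untreated, 0.02, -0.12, 0.01 and 0.58 at day 1, -0.33, -0.72 and 0.21 in 3 day 2 samples, and 0.64, 0.35 and 0.02 at day 5. Untreated replicate 2 and day 2 replicate 4 made the groups overlap. The day 2 change of -0.67 did not pass (limma adjusted p = 0.0727), but it did without untreated replicate 2 (-0.79, adjusted p = 0.0483) or day 2 replicate 4 (-0.91, adjusted p = 0.0218) and in 4 other alternatives. Between day 5 and day 2 its 0.62 (adjusted p = 0.0783) passed without day 2 replicate 4 (0.87) or day 5 replicate 3 (0.78) and in 3 other alternatives. Slc22a21 (gene 56517), a carnitine carrier, passed only the F test (limma adjusted p = 0.0468). It read 0.08, 0.18, 0.01 and -0.01 untreated, 0.46, 0.43, 0.37 and 0.30 at day 1, 0.08, 0.03, 0.47 and 0.38 at day 2, and 0.05, -0.09 and -0.06 at day 5. All day 1 samples lay above all untreated samples, and the day 2 samples were split. Without day 2 replicate 2 the day 5 against day 2 change was -0.34 and passed (adjusted p = 0.0479). Slc16a1 (gene 20501), the lactate and pyruvate carrier, had the lowest ratio of the 87 genes in untreated samples and the widest spread. It read -2.78, -0.96, -2.87 and -2.11 untreated, -1.70, -2.38, -1.72 and -2.34 at day 1, -0.61, -1.18, -1.95 and -1.68 at day 2, and -2.60, -2.08 and -0.70 at day 5. Its groups overlapped at every time, and the day 2 change of 0.83 had an interval of -0.11 to 1.76 (adjusted p = 0.244). Slc14a2 (gene 27411), a urea carrier, read 0.44, 0.17, 0.35 and 0.22 untreated, 0.07, 0.05, 0.15 and 0.07 at day 1, -0.05, -0.19, -0.14 and 0.24 at day 2, and 0.40, 0.38 and -0.02 at day 5. With 3 of 4 day 2 samples below the untreated range, its change of -0.33 did not pass (adjusted p = 0.0890), and without day 2 replicate 4, the sample within that range, it was -0.42 (adjusted p = 0.0379). Between day 5 and day 2 it passed without day 2 replicate 4 (0.38) or day 5 replicate 3 (0.42).

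At day 5 the count of 0 of 87 came with 11 genes at an unadjusted p under 0.05 (12.6%), against 17.4% of all features. The median change was -0.019 over the solute carriers and 0.0044 over all features. With both technical columns kept and the blood sample as a random effect, limma called 2 genes at day 5, Slc46a1 and Slc25a3, both lower. That fit called 407 of all features at day 5. The genes that were lower at day 5 than at day 2 did so beside neutrophil markers that fell between the same samples, and those that were higher beside monocyte markers that rose. Other markers also passed between day 5 and day 2: the B cell genes Ms4a1 (-0.90) and Cd22 (-0.61), Cd4 (-0.58) and the NK cell gene Nkg7 (-0.44) were lower at day 5, and Alas2 was higher (3.57). The part of any marker list in these differences was not tested.

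In untreated blood, 22 of the 87 genes had ratios above 0 in every sample with a value, 29 had ratios below 0 in every such sample, and 36 were mixed. The median of the untreated means was -0.0059, and 74 genes lay within 0.5 of 0. Beyond 1 in size were 4 genes: Slc39a4 at 1.29 ± 0.20 (SD, n = 4), Slc16a1 at -2.18 ± 0.88, Slc6a9 at -1.15 ± 0.54 and Slc29a1 at -1.14 ± 0.33. These are levels relative to the marrow reference with a fixed dye, so a dye effect, which was not measured, cannot be told apart from them. Slc6a9 (gene 14664), the glycine carrier of red cell precursors, read -1.16, -0.41, -1.67 and -1.34 untreated, -2.02, -2.40, -1.34 and -2.05 at day 1, -1.03, -1.33 and -2.41 in 3 day 2 samples, and -1.75, -0.91 and -2.08 at day 5. It was below the reference in every sample, with overlapping groups and a day 1 change of -0.81 that did not pass (limma adjusted p = 0.192).

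Other transport genes are given from lists of families, as counts. Of 31 ATP-binding cassette genes on the array 11 were tested, and 0 rose and 1 fell at day 2: Abcf2, which takes part in translation rather than transport, by -0.61 ± 0.12 (limma adjusted p = 0.0031), after -0.49 at day 1 (adjusted p = 0.0360). Between day 5 and day 2, 2 were higher (Abcf2 by 0.93, Abcb9 by 0.56) and 2 lower (Abca1, the cholesterol exporter, at -0.54, and Abcc6 at -0.40), which is 4 of 11 where 25.5% of all features passed. Of 6 tested sodium-potassium and calcium ATPase genes 1 rose at day 2, the sodium pump subunit Atp1b1 (0.61 ± 0.16, adjusted p = 0.0238), which was also lower at day 5 than at day 2 (-0.95, adjusted p = 0.00106). Of 5 tested organic anion (Slco) genes and 6 tested major facilitator (Mfsd) genes 0 passed at day 2, and 1 of each was higher at day 5 than at day 2, Slco6c1 by 0.59 and Mfsd1 by 0.52. The 5 tested partner genes of carriers include Slc9a3r2, which is also counted among the solute carriers above. Among these 5, 1 rose at day 2: Emb, embigin, a chaperone of monocarboxylate carriers, by 0.66 ± 0.13 (adjusted p = 0.00349), and it was lower at day 5 than at day 2 (-0.93, adjusted p = 2.22e-04). The monocarboxylate carrier Slc16a1 did not pass at that time.

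Iron and heme genes, which share their pathway with mitoferrin, had 10 tested of 21 listed, with 0 rising and 1 falling at day 2. That gene was Ncoa4, the ferritin receptor of iron release, at -1.12 ± 0.35 (limma adjusted p = 0.0480), and it was higher by 1.97 at day 5 than at day 2 (adjusted p = 0.00137). Ppox, an enzyme of heme synthesis, was lower at day 5 than at day 2 (-0.79, adjusted p = 0.0207). Of 7 tested erythroid genes 1 fell at day 2, Alas2 at -2.83, which was higher at day 5 than at day 2 (3.57), while Rhag, a red cell membrane protein, was lower (-0.84, adjusted p = 0.00245). No gene of these 7 lists passed at day 5 against untreated.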

How the data were processed

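The authors deposited 1 log ratio per probe for each of 30 columns, taken here as log2 ratios of blood (Cy5) over marrow (Cy3) from the dyes in the labels. How the authors scanned, corrected, normalized and filtered these values, and their log base, were not given in the sources used here. Values ran from -4.70 to 5.76, beyond the 4.82 that log10 of a 16-bit intensity allows, and column medians from -0.0028 to 0.025, so ratios show unequal change, not amounts. The 13443 probes gave 5314 to 9398 values a column, and 10032 had 1 platform symbol. The 2 technical replicates of each of 15 samples (r of 0.829 to 0.957 across probes) were averaged and count as 1, as were probes of a gene. Samples are independently harvested per the labels; the number of arrays limits precision.

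limma 3.58.1 in R 4.3.3 (lmFit, eBayes) fitted 1 mean per group over 15 samples, with Benjamini-Hochberg adjustment over 6515 features and a threshold of 0.05. SE and 95% intervals come from that fit, which was tested on simulated data. Missing values were left out, not imputed. The genes, classes and lists were chosen with earlier results of these data known. Named genes are those past the threshold, the smallest F test p of each class, and 20 listed genes where tested (6 were); others named were chosen after their values were seen. Alternatives covered normalization, filters, technical replicates, probes, variance prior, weights, pairing and each sample left out.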

Additional observations from a re-analysis of the deposited data

Results flagged for a closer look

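Within groups of 4 samples, 65 sets of values of the named genes were screened for 1 sample far from the others by Dixon's criterion, which chance meets in about 1 of 20 groups, and 2 met it. Slc25a39 had 0.99 in untreated replicate 3 against 0.14 to 0.18 in the other 3. Slc7a7 had -0.41 in day 2 replicate 4 against -0.32 to -0.31 in the others.

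The effect at day 5 minus the effect at day 2, both against untreated, differed from 0 in 15 genes by the test of day 5 against day 2 (limma adjusted p under 0.05). It was positive for Slc35b4 (1.31), Slc2a9 (0.96), Slc27a3 (0.92), Slc25a39 (0.86), Slc7a7 (0.74), Slc39a11 (0.69) and Slc33a1 (0.36). It was negative for Slc46a1 (-1.02), Slc35a5 (-0.68), Slc35f4 (-0.67), Slc1a3 (-0.66), Slc25a11 (-0.56), Slc35a4 (-0.55), Slc34a2 (-0.47) and Slc37a3 (-0.42).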

How the results depend on the processing

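Of 27 gene and comparison pairs that passed, 15 passed under all 28 alternatives, 12 were lost under at least 1, and 0 reversed. Where each probe was fitted alone, the probe of a gene with the smallest p was counted. Slc39a11 between day 5 and day 2 is thus among the 15, although its other probe did not pass (0.22, limma adjusted p = 0.259). Slc25a39 and Slc34a2, among the lost, had values missing and a value in 26 and 27 alternatives. The 4 day 2 calls that held throughout were Slc35b4, Slc46a1, Slc7a7 and Slc1a3, and 11 of the day 5 against day 2 calls held; neither day 1 call did. The day 1 count of 2 was 6 with quantile normalization, 4 with features complete in all samples, 1 with the first technical replicate alone, 9 with the sample as a random effect, 4 with a trended robust prior, 12 with array weights, and 0 to 5 with single samples left out (0 without untreated 3 or 4 or day 1 replicate 1, 2 or 4, 5 without day 1 replicate 3). Over all features the day 1 count of 300 was 462, 357, 216, 715, 327 and 864 in the same order. The fit with features complete in all samples held 62 solute carriers and fewer than all 6515 features, so its counts are out of smaller totals. It was 60 to 80 in the fits that gave 0, and 438 without day 1 replicate 3. The day 2 count of 10 was 6 to 12 with single samples left out, 6 without untreated replicate 2. Over all features the day 2 count of 826 was 529 to 942 in those fits, and 686 without untreated replicate 2. The day 5 count of 0 was 1 with the second technical replicate alone (Slc25a33), 2 with the random effect, and 0 to 1 with single samples left out (1 without day 2 replicate 2, day 5 replicate 2 or day 5 replicate 3). The count over all features, 71, was 77 with that technical replicate, 407 with the random effect and 27 to 224 with single samples left out. The day 5 against day 2 count of 15 was 12 to 22, and the F test count of 14 was 12 to 17 with single samples left out and 22 with the random effect. Over all features these counts, 1664 and 1476, were 1196 to 1856 and 1111 to 1673 with single samples left out. With the random effect, 1972 of all features passed the F test. The cause of these shifts was not tested.

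Same-numbered samples did not deviate together: over 21 pairs the correlation of deviations lay between -0.284 and 0.171 (median -0.0264, against 0.0115 for 63 pairs of other numbers), and 2 of 15 samples correlated best with their own number. With the replicate number as a block, the counts in this replicate block fit were 1 at day 1, 9 at day 2, 0 at day 5, 15 between day 5 and day 2 and 12 for the F test. Over all features they were 107, 675, 50, 1455 and 1181 in the same order. Leaving out day 2 replicate 2 and untreated replicate 1, the samples with the lowest technical correlation, was chosen after seeing the data. Of 7 named genes that did not pass, Slc14a2 passed at day 2 with quantile normalization (-0.39) and without day 2 replicate 4 (-0.42), and between day 5 and day 2 in 3 alternatives. Slc22a21 passed at day 1 with array weights (0.32) and with only those groups fitted (0.33), and between day 5 and day 2 without day 2 replicate 2 (-0.34). Including those, 40 gene and comparison pairs that did not pass in the report passed under at least 1 alternative. The small groups and unknown filter on low values limit what could be measured, since 86 of 173 genes had too few values.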
